A study of Drosophila melanogaster with 33 samples.

Results

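Eip74EF and Eip75B lie near each other on arm 3L of Drosophila melanogaster and are early genes of the ecdysone response. Ecdysone is the steroid hormone of insect moulting and metamorphosis. Bound to its receptor, a dimer of the nuclear receptors EcR and Usp, it directly induces a small set of early genes, whose products are transcription factors that go on to control later genes. Eip74EF encodes an ETS-domain transcription factor and Eip75B a nuclear receptor, and both are long genes with several promoters and transcript forms.

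The 2 loci were taken as fixed windows of build dm3, 3L:17510000-17670000 for Eip74EF (160 kb, with the gene itself at about 3L:17555000-17620000) and 3L:17940000-18075000 for Eip75B (135 kb). They held 459 of the 94396 peaks in 13 deposited ChIP-seq peak lists, 214 at Eip74EF and 245 at Eip75B. The loci were selected on the number and coverage of their AbdA peaks in these same data, so their AbdA peak number and coverage describe them and are not a test. In Release 6 of the genome, used only for names and gene order, CycT and Vps60 were the protein-coding neighbours of Eip74EF, and CG5290 and CG44006 those of Eip75B, with CG32192 and CG42393 inside it. A further 48 protein-coding genes lay between the 2 genes. The Eip74EF window reaches past the gene on both sides, so peaks there may belong to neighbours. Gene spans in dm3 are approximate, and no peak was assigned to a promoter, exon or intron.

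S2-AbdA cells were S2-DRSC cells (a Drosophila line derived from late embryos) stably transfected with HA-tagged AbdA, a Hox transcription factor of the abdomen. They were set against S2-DRSC cells without the transgene, called S2. Copper sulphate was given to both, at 10 µM and for 24 h before chromatin was prepared, and no ecdysone is named. HA-AbdA had a list in S2-AbdA only. Each line had lists for Rpb3, a core subunit of RNA polymerase II; for the polymerase phosphorylated on serine 2 of its tail (Ser2P), the elongating form; for M1BP, a promoter-binding zinc finger protein tied to polymerase pausing; for GAF, which binds GA repeats and keeps chromatin accessible; and for dRing and E(z), catalytic subunits of the Polycomb complexes, which ubiquitylate and methylate histones. For each antibody and line that has a list, the labels give 2 samples but 1 peak list for both. No spread between replicates can therefore be given, and no difference between the lines was tested. Sequencing depth behind the lists is unknown.

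The labels' input codes differ between the lines for every factor, and within S2-AbdA GAF and HA-AbdA share a code that the other 5 factors lack. Line and input code therefore cannot be told apart. The lists also differed in length, from 4309 peaks for Ser2P in S2 to 10352 for HA-AbdA. In 9 of them over 20% of peaks lay off the chromosome arms, those of Ser2P, M1BP, dRing and E(z) in each line and that of GAF in S2. The GAF lists were unlike each other here, with 0.609% of peaks off the arms in S2-AbdA and 23.7% in S2. Sites with a peak in at least 6 of those 9 lists are called recurrent sites below. The arms held 1356 of them, the Eip74EF window 3 and the Eip75B window 5. Scores in the lists are the authors' own values and are used only to rank peaks within 1 list.

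AbdA peaks were dense at both loci. HA-AbdA had 40 peaks covering 26.3% of the Eip74EF window and 30 peaks covering 22.7% of the Eip75B window, against 11.3% of the rest of 3L. The 270 kb between the windows held 37 peaks covering 12%, close to the rest of the arm. The peaks were of ordinary strength and width for their list. Their median score was 35 at Eip74EF and 38.5 at Eip75B, against 36.7 over the list, and their median width was 933 bp and 793 bp, against 836 bp. The top 25% of the list by score included 10 of the 40 peaks and 7 of the 30.

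When AbdA peaks up to 10 kb apart were joined, all 40 peaks at Eip74EF fell into 1 run, 3L:17517580-17664993. By number of peaks it was among the top 5 of 2628 runs of the genome. The other 4, of 53, 42, 40 and 40 peaks, began at 3R:16879196, 2L:12416065, 2L:10382954 and 2R:9797752. The Eip75B run, 3L:17973917-18107814, stood 8th with 34 peaks and continued past the window's end. In S2-AbdA, GAF covered 19% of the Eip74EF run and 20.5% of the Eip75B run, against 4.98 to 28.2% of the other 4 runs. Ser2P covered 11.2% of the Eip74EF run and 0.336% of the Eip75B run, against 11.5 to 18.1% of the other 4. Run size depended on the gap allowed. With gaps of up to 5 kb the largest run had 10 peaks at Eip74EF and 15 at Eip75B, and with gaps of up to 20 kb the Eip75B run had 61. A different run of 23 peaks, at gaps of up to 10 kb, 3L:17887258-17944067, crossed the window's start and put 3 of its peaks inside. Peaks within the loci were spaced unevenly. The median distance between neighbouring centres was 2.84 kb at Eip74EF and 3.43 kb at Eip75B, and the longest stretch without an AbdA peak was 9.48 kb and 17.5 kb.

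**Figure D1:**
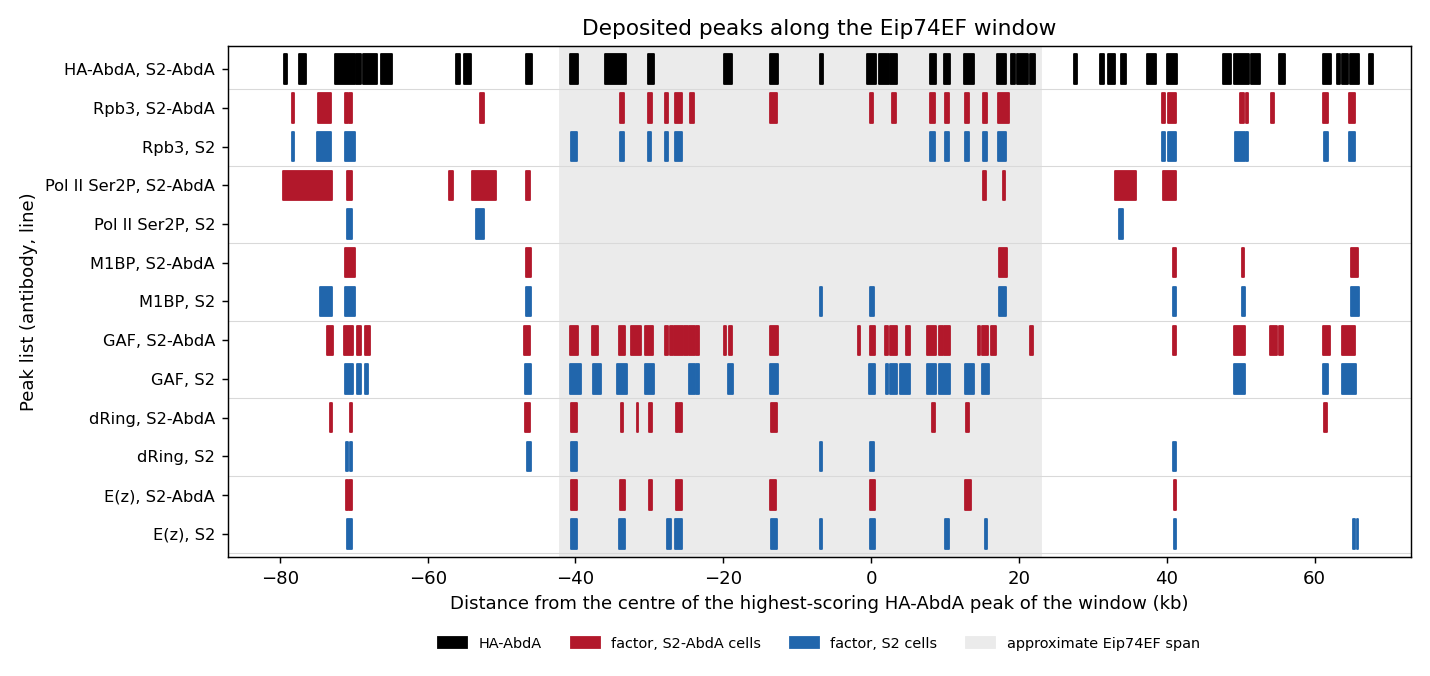
Peaks of the 13 lists along the Eip74EF window, with 1 row per list. The horizontal axis is the distance in kb from the centre of the strongest HA-AbdA peak, each block is 1 peak, and the shaded area is the approximate gene span. The 40 HA-AbdA peaks run across the window, GAF peaks crowd the gene span, and Ser2P blocks lie mostly outside it.

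**Figure D2:**
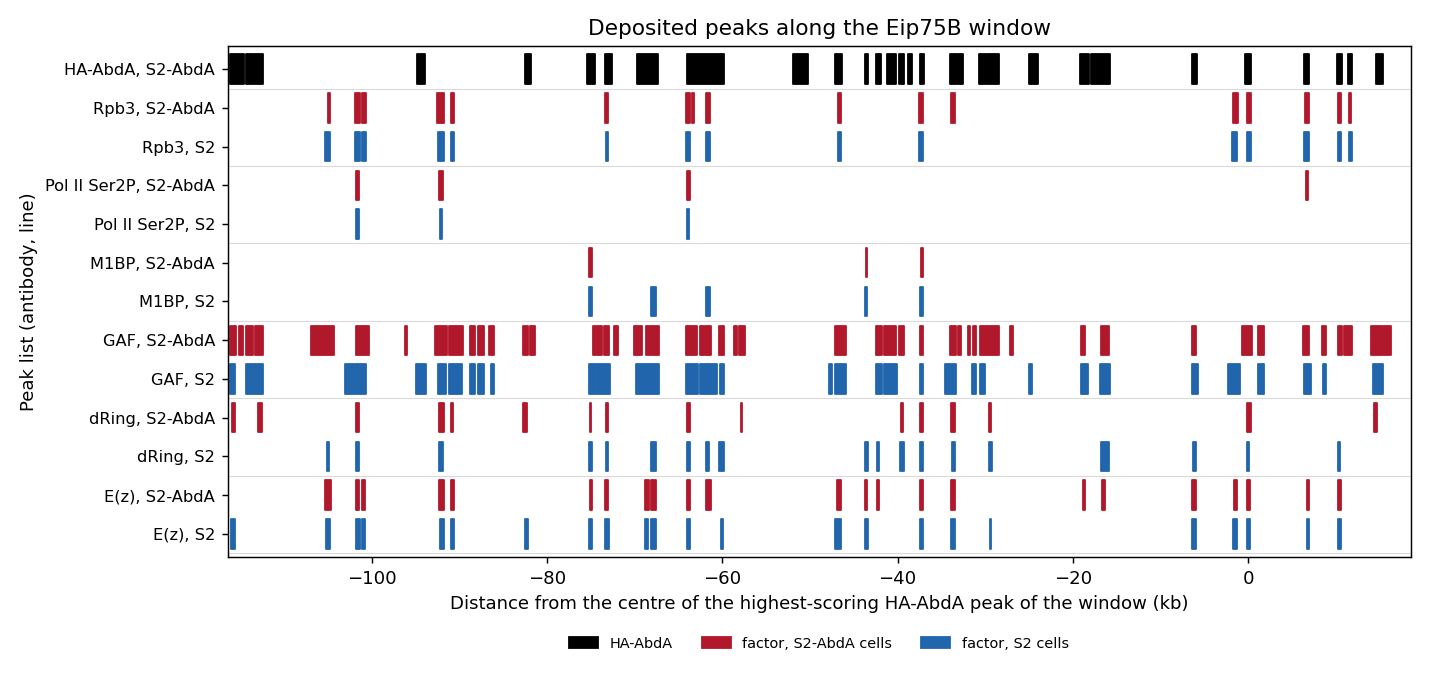
Peaks of the 13 lists along the Eip75B window, drawn in the same way, with distance in kb from the centre of its strongest HA-AbdA peak. GAF has the most peaks of any factor in both lines (53 in S2-AbdA and 34 in S2), and the 4 Ser2P peaks of S2-AbdA and 3 of S2 are narrow.

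GAF had the highest coverage of the 6 factors at both loci, in S2-AbdA and in S2. Its peaks covered 17.5% of the Eip74EF window in S2-AbdA and 14.3% in S2, against 5.55% and 4.05% of the rest of 3L in the same lists. At Eip75B it covered 28.2% in S2-AbdA and 24% in S2. These are 3.15 and 3.53 times the rest of 3L at Eip74EF and 5.08 and 5.91 times at Eip75B. GAF peaks there were also strong within their lists. The top 25% of the S2-AbdA list by score included 16 of 37 peaks at Eip74EF and 25 of 53 at Eip75B, and that of the S2 list 11 of 23 and 12 of 34. The highest GAF peak at Eip74EF was 3L:17525722-17526894 in S2-AbdA (score 302) and 3L:17599624-17600544 in S2 (score 285). Both lay on AbdA, and the former also on a recurrent site. Within the approximate span of Eip74EF, GAF covered 28% in S2-AbdA and 25.1% in S2. Between the windows it covered 4.51% in S2-AbdA and 4.27% in S2, near the rest of the arm.

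Rpb3 was present at both loci, with coverage above the rest of 3L at Eip74EF and near or below it at Eip75B. At Eip74EF it had 25 peaks over 9.97% in S2-AbdA and 19 peaks over 8.93% in S2, against 5.16% and 6.32% of the rest of 3L. At Eip75B 17 peaks covered 5.38% in S2-AbdA and 15 peaks covered 5.01% in S2. Some of these peaks were among the strongest of their lists. The strongest at Eip75B, at 3L:18062940-18063404 in S2-AbdA (score 239) and 3L:18062893-18063427 in S2 (score 292), was 61st of 8896 and 21st of 9370.

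Ser2P covered little of Eip75B and lay mostly outside Eip74EF. At Eip75B it had 4 peaks over 0.941% in S2-AbdA and 3 peaks over 0.639% in S2, against 5.92% and 2.26% of the rest of 3L. Its peaks there were narrow rather than few. They numbered 2.96 per 100 kb in S2-AbdA and 2.22 in S2, against 2.77 and 1.33 on the rest of 3L. Their median widths were 330 bp and 255 bp, against 1256 bp and 739 bp. These values rest on the 4 and 3 peaks, and the 3 sites called in both lines all lay on recurrent sites. At Eip74EF Ser2P had 9 peaks over 10.4% in S2-AbdA and 3 peaks over 1.38% in S2. The gene span held 2 of those 9 peaks, covering 0.82% of it, and none of the 3 in S2. The sequence of the window before the gene held most of the rest, 25.6% covered in S2-AbdA and 3.67% in S2. The strongest Ser2P peak of the Eip74EF window, 3L:17526113-17526778 in S2-AbdA (score 11.2) and 3L:17526119-17526785 in S2 (score 5.63), lay there too, on a recurrent site. At Eip75B the strongest was 3L:17954603-17955032 in S2-AbdA (score 19.7) and 3L:17954627-17955010 in S2 (score 8.21), also on a recurrent site. The stronger 50% of the S2-AbdA list held 1 of the 9 peaks at Eip74EF and 3 of the 4 at Eip75B, and that of the S2 list none of the 6.

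M1BP had 6 peaks at Eip74EF in S2-AbdA and 9 in S2, covering 3% and 4.59% of the window, against 2.8% and 3.12% of the rest of 3L. At Eip75B it had 3 peaks in S2-AbdA and 5 in S2, covering less than on the rest of 3L, 0.591% in S2-AbdA and 1.48% in S2. At Eip74EF its strongest peak was 3L:17525914-17527216 in S2-AbdA (score 222), on a recurrent site, and 3L:17661924-17662977 in S2 (score 296). At Eip75B the strongest in both lines, 3L:17981288-17981557 in S2-AbdA (score 37.3) and 3L:17981252-17981581 in S2 (score 59.9), also lay on a recurrent site.

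The Polycomb proteins had more peaks in the Eip75B window than in the Eip74EF window. E(z) had 23 peaks in each line at Eip75B, covering 6.56% in S2-AbdA and 6.51% in S2, against 2.01% and 2.15% of the rest of 3L. At Eip74EF it had 10 peaks over 3.86% in S2-AbdA and 13 peaks over 4.6% in S2. dRing covered 3.92% of Eip75B in S2-AbdA with 16 peaks and 5.57% in S2 with 19 peaks. At Eip74EF it covered 3.56% in S2-AbdA with 13 peaks and 1.82% in S2 with 7 peaks, against 1.78% and 1.67% of the rest of 3L. Within the approximate span of Eip74EF, E(z) covered 7.98% in S2-AbdA and 8.94% in S2, and dRing 6.15% and 2.58%. Apart from dRing in S2, these values exceeded the coverage of the Eip75B window. On either side of the span E(z) covered 0.606 to 1.67%. Few of these peaks were among the strongest of their lists, in which 34.9 to 39.6% of peaks lie off the arms. The top 25% of the lists held none of the 29 dRing and 33 E(z) peaks of S2-AbdA at the 2 loci, 1 of the 26 dRing peaks of S2 and 2 of the 36 E(z) peaks of S2. Set against the rest of 3L, their median scores were ordinary for dRing in S2-AbdA (11.4 against 10.8) and for E(z) in S2-AbdA (15.1 against 14.3) and S2 (15.2 against 14.2), and lower for dRing in S2 (14.4 against 17.2). Coverage between the windows was also above the rest of 3L, at 3.81% for E(z) in S2-AbdA and 4.12% in S2. For dRing it was 3.13% in S2-AbdA and 3.28% in S2. A single wide peak gave much of this, up to 4124 of 8843 bp for dRing in S2. By peaks per 100 kb E(z) stood at 4.81 in S2-AbdA and 5.56 in S2, against 3.46 and 3.72 on the rest of 3L. dRing stood at 4.81 and 4.44, against 3.33 and 2.55. By number of peaks, too, the difference was not limited to the loci for either protein. Both dRing and E(z) sites lay largely on GAF. In S2-AbdA 9 of 10 E(z) peaks at Eip74EF and 20 of 23 at Eip75B overlapped GAF (44.5% over the arms). In S2 8 of 13 and 17 of 23 did (46.2%). Of dRing peaks, 12 of 13 and 15 of 16 did in S2-AbdA (50%), and 5 of 7 and 13 of 19 in S2 (44.9%). GAF also covers more sequence at the loci than on the rest of 3L, and its part in these shares was not tested.

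**Figure D3:**
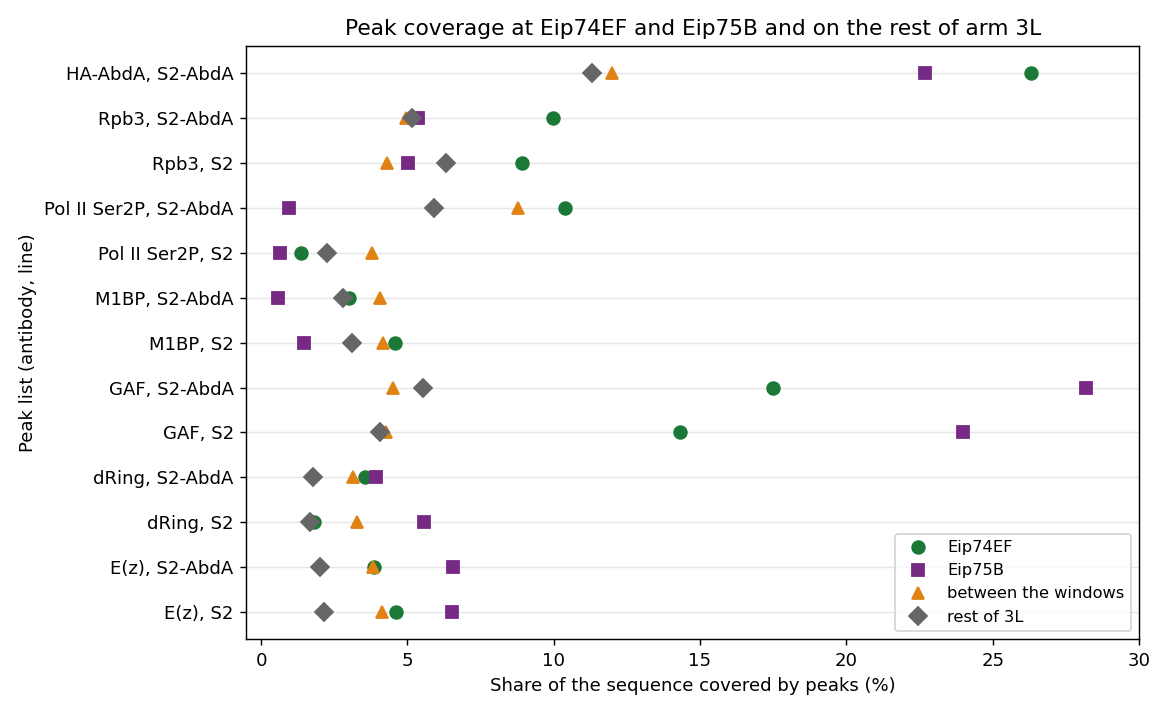
Share of sequence covered by peaks of each list, in percent, at the Eip74EF and Eip75B windows, between them and on the rest of arm 3L. GAF at Eip75B stands farthest to the right of the factors, at 28.2% in S2-AbdA and 24% in S2, while Ser2P and M1BP at Eip75B lie left of the rest of 3L in both lines.

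Of the 5 highest-scoring AbdA peaks, 3 at Eip74EF and all 5 at Eip75B lay on peaks of several factors. At Eip74EF the highest, 3L:17596431-17597662 (score 143, 277th of 10352), lay on peaks of GAF and E(z) from both lines, on Rpb3 of S2-AbdA alone, and on M1BP and dRing of S2 alone. Next came 3L:17637120-17638403 (score 115), with M1BP, E(z) and Rpb3 called in each line, Ser2P and GAF in S2-AbdA alone and dRing in S2 alone, and it includes a recurrent site. At 3L:17609658-17610950 (score 94.2) Rpb3 was in both lines, dRing and E(z) were in S2-AbdA alone and GAF was in S2 alone. The remaining pair of the 5 highest carried GAF and nothing else, 3L:17652224-17652967 (score 85.8) in S2-AbdA alone and 3L:17528367-17530170 (score 83.4) in both lines. The widest AbdA peak of the window, 3L:17561024-17563902 (2879 bp), lay on Rpb3, GAF and E(z) of both lines and on dRing in S2-AbdA alone.

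At Eip75B the highest AbdA peak, 3L:18056113-18056804 (score 123), carried E(z), dRing and Rpb3 of each line and GAF of S2-AbdA alone. The next, 3L:18050029-18050683 (score 120), carried E(z) and GAF of each line and dRing of S2 alone. At 3L:18022448-18023192 (score 108) E(z), dRing and GAF came from each line and Rpb3 from S2-AbdA alone. The peak at 3L:17981026-17981937 (score 85.8), on a recurrent site, had E(z), dRing, GAF and M1BP of each line, and 3L:18009368-18010158 (score 81) had E(z), GAF and Rpb3 of each. All 5 thus lay on E(z) of each line. Of all 30 AbdA peaks of the window, 15 lay on E(z) of S2-AbdA (20.7% over the arms) and 15 on E(z) of S2 (23.7%). The widest, 3L:17992412-17996662 (4251 bp), overlapped all 6 factors in S2 and all but M1BP in S2-AbdA, and it includes a recurrent site.

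At Eip75B 25 of 30 AbdA peaks (83.3%, exact Clopper-Pearson 95% interval 65.3 to 94.4%) overlapped a GAF peak of S2-AbdA and 20 of 30 (66.7%, 47.2 to 82.7%) one of S2, against 42.5% and 28.2% over the arms. At Eip74EF the numbers were 21 of 40 (52.5%, 36.1 to 68.5%) in S2-AbdA and 19 of 40 (47.5%, 31.5 to 63.9%) in S2. Peaks matched by centres within 250 bp gave lower shares, 56.7% in S2-AbdA and 46.7% in S2 at Eip75B, and 27.5% and 25% at Eip74EF. The shares over the arms were not recomputed by centres, so they do not stand beside these values. GAF also covers more sequence at the loci than on the rest of 3L, as given above, and its part in these shares was not tested. The intervals cover counting error only and treat neighbouring peaks as independent. AbdA peaks on dRing or E(z) numbered 21 of 30 (70%) in S2-AbdA and 18 of 30 (60%) in S2 at Eip75B. Over the whole Eip74EF window they numbered 11 of 40 (27.5%) in S2-AbdA and 10 of 40 (25%) in S2, near the 29% and 28.2% of the arms. In each line most of them lay within the approximate gene span, which held 16 of the 40 AbdA peaks. Of the Rpb3 lists, S2-AbdA overlapped 14 of 40 AbdA peaks at Eip74EF and 9 of 30 at Eip75B (45.6% over the arms), and S2 12 of 40 and 8 of 30 (47.4%). Ser2P overlapped 9 of the 70 in S2-AbdA (26.2% over the arms) and 3 in S2 (11.4%). M1BP overlapped 9 of the 70 in S2-AbdA (29.4% over the arms) and 13 in S2 (32.9%). Without recurrent sites, the shares on M1BP were 6.25% in S2-AbdA and 10.9% in S2, against 12.9% and 18.6% with them, and those on Ser2P 7.81% and 1.56%, against 12.9% and 4.29%. M1BP and Ser2P peaks help to define recurrent sites, so the lower shares follow in part from the definition. The shares over the arms were not recomputed without these sites.

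AbdA peaks with no factor peak in either line were found mainly beyond the Eip74EF gene. At Eip74EF 13 of 40 peaks lacked all 6 factors in both lines and at Eip75B 2 of 30 did, against 25.4% over the arms. After the gene span 8 of 15 AbdA peaks were of this kind, within it 2 of 16 and before it 3 of 9. All but 1 scored under the list's median, the exception being 3L:17648438-17649608 (score 70.2).

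**Figure D4:**
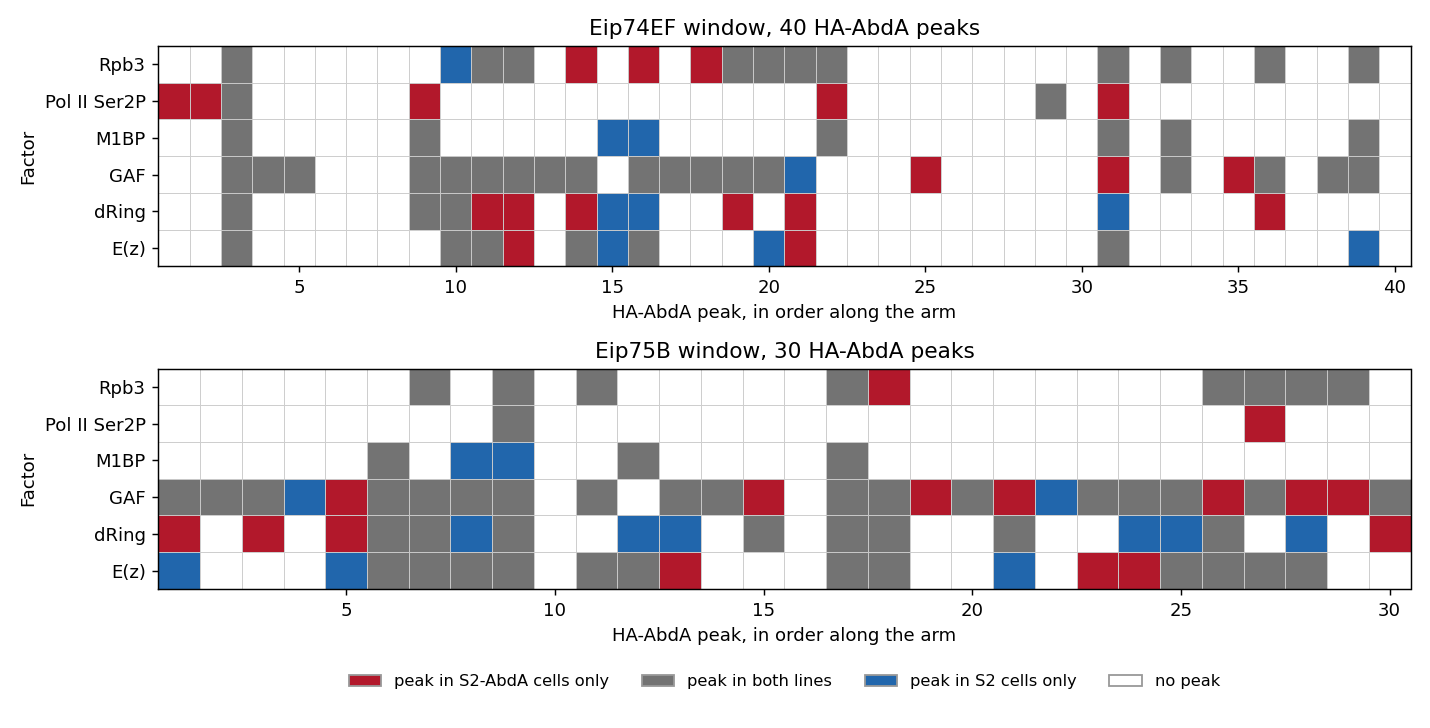
Factors at each HA-AbdA peak, in order along the arm, at Eip74EF (top, 40 peaks) and Eip75B (bottom, 30 peaks). Each column is 1 HA-AbdA peak and each row 1 factor, coloured by the line or lines with an overlapping peak. GAF fills 25 of 30 columns at Eip75B in S2-AbdA, and 13 columns at Eip74EF are empty.

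Counted over the factor peaks of both loci, the shares on AbdA were above those of the arms for M1BP, dRing and E(z), and for GAF in S2, and near them for Rpb3 and Ser2P. AbdA overlapped 9 of 9 M1BP peaks in S2-AbdA (61.1% over the arms) and 13 of 14 in S2 (61.9%). It overlapped 21 of 29 dRing peaks in S2-AbdA (50.1% over the arms) and 23 of 26 in S2 (56.3%), and 26 of 33 E(z) peaks in S2-AbdA (60.2%) and 27 of 36 in S2 (62.9%). For GAF it was 53 of 90 in S2-AbdA (57%) and 40 of 57 in S2 (56.1%). For Rpb3 it was 27 of 42 in S2-AbdA (66%) and 22 of 34 in S2 (63.7%), and for Ser2P 8 of 13 in S2-AbdA (58.3%) and 3 of 6 in S2 (58.6%). The loci were selected for dense AbdA peaks, so a higher share there reads against more covered sequence.

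Not all strong polymerase sites carried AbdA. Rpb3 regions in the top 25% of both lists numbered 5 at Eip74EF and 7 at Eip75B, and AbdA overlapped 3 and 4 of them, against 70.6% of such regions over the arms. The strongest Rpb3 peak of S2 at Eip74EF, 3L:17612121-17612661 (score 198), lay 1.17 kb from the nearest AbdA peak, and its counterpart in S2-AbdA, 3L:17612139-17612679, scored 207. The strongest of S2-AbdA there, 3L:17526420-17526872 (score 214), lay on an AbdA peak and a recurrent site. At Eip75B the Rpb3 regions 3L:17954516-17955117 and 3L:17963899-17964688 lay 6.44 kb and 1.43 kb from AbdA, with E(z), dRing, Ser2P and GAF called in each line. Both are recurrent sites. One more, 3L:18054637-18055327, lay 0.786 kb from AbdA, with E(z) of each line and GAF of S2 alone. The site with the strongest Rpb3 and GAF of both lines at Eip75B did overlap AbdA, but its AbdA peak, 3L:18062814-18063383, was weak (score 16.6, 9158th of 10352). Its GAF peak scored 385 in S2-AbdA and 370 in S2, and Ser2P was there in S2-AbdA alone.

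The stretches without AbdA were not empty of the other factors. The longest at Eip74EF, 3L:17567636-17577117, lies inside the gene span and held 6 GAF peaks in S2-AbdA (highest score 291) and 2 in S2 (highest 43.3). It also held 3 Rpb3 peaks in S2-AbdA and 2 in S2, 2 dRing peaks in S2-AbdA and none in S2, and 1 E(z) peak in S2-AbdA and 2 in S2. The longest at Eip75B, 3L:17944068-17961554, held the strongest E(z) peak of S2-AbdA at this locus, 3L:17951159-17951754 (score 31.1), 7.09 kb from AbdA. It also held 3 Rpb3 peaks in each line, and 3 GAF peaks in S2-AbdA and 2 in S2 that lay wholly within it.

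Factor peaks of the lines were merged into regions and sorted into those called in S2-AbdA alone, in both lines or in S2 alone. Over both loci and all 6 factors, 69 of 242 regions (28.5%) were called in S2-AbdA alone, 138 (57%) in both lines and 35 (14.5%) in S2 alone. Over the arms the shares were 28.2%, 55.5% and 16.3%, near those of the loci in sum. The sums mix the factors in unlike proportions, with GAF giving 89 of 242 regions at the loci and 10229 of 40767 over the arms. By factor, 57.3% of GAF regions at the loci were in both lines, against 40.7% over the arms. Regions in S2 alone were 2.38% against 19.1% for Rpb3, and 35.7% against 18.4% for M1BP. Shares in both lines were nearer the arms for E(z) (61.9% against 66.7%), dRing (31% against 33.9%) and Ser2P (46.2% against 41.8%). Few of the regions called in 1 line alone scored above the median of their list. Of those in S2-AbdA alone, none of 8 for Rpb3, 7 for Ser2P and 6 for E(z) scored above the median of its list, 4 of 16 did for dRing, and 11 of 32 did for GAF. Of those in S2 alone, none of 1 for Rpb3 and 10 for E(z) did, 2 of 13 did for dRing, 1 of 5 for M1BP and 3 of 6 for GAF. Low scores were not limited to such regions: of those called in both lines, by their score in S2, none of 6 for Ser2P, 4 of 13 for dRing and 8 of 26 for E(z) exceeded the median of the S2 list.

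GAF had more regions in S2-AbdA alone than any other factor. There were 14 at Eip74EF and 18 at Eip75B, 32 of 89 regions in all, against 47.7% over the arms, and 1 and 5 regions were in S2 alone (11.6% over the arms). Fewer of them lay on AbdA than of the shared ones. Of GAF regions in S2-AbdA alone, 12 of 32 overlapped an AbdA peak (51.9% over the arms), against 37 of 51 in both lines (62.5% over the arms). Some were strong. The highest at Eip74EF, 3L:17570430-17571647 (score 291, 729th of 9530), lay in the longest stretch without AbdA. At Eip75B the highest, 3L:18066708-18067143 (score 328, 346th), was on AbdA, with E(z) and Rpb3 of each line. The strongest in S2 alone were 3L:17609692-17610890 at Eip74EF (score 234) and 3L:17961478-17962593 at Eip75B (score 287), both on AbdA peaks. With the GAF lists of both lines cut to the same length by score, 20 regions were in S2-AbdA alone. With peaks matched by centres within 250 bp, 13 were in S2 alone. The unlike share of off-arm peaks in the GAF lists moved with the line, and its part in these counts was not tested.

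Rpb3 was mostly shared. At Eip74EF 18 of 25 regions were in both lines, 6 in S2-AbdA alone (11.7% over the arms) and 1 in S2 alone (19.1% over the arms). At Eip75B 15 of 17 were in both, 2 in S2-AbdA alone and none in S2 alone. The highest in S2-AbdA alone was 3L:17572579-17573122 at Eip74EF (score 20.2) and 3L:17992998-17993261 at Eip75B (score 15.4, on a recurrent site). The single region in S2 alone was 3L:17556428-17557300 (score 17.6), on AbdA (52.5% of such regions over the arms). AbdA overlapped 5 of the 8 in S2-AbdA alone (63.8% over the arms) and 21 of the 33 in both lines (66.8%).

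Ser2P was called in S2-AbdA alone at 6 of 9 regions at Eip74EF and 1 of 4 at Eip75B, against 56.6% over the arms, and in S2 alone at none (1.53% over the arms). The highest at Eip74EF was 3L:17614920-17615113 (score 5.1), on AbdA and on M1BP of both lines. At Eip75B the single one was 3L:18063100-18063279 (score 3.53), on the strongest Rpb3 site. The S2-AbdA list of Ser2P, with 6377 peaks, was longer than that of S2, with 4309, and with lists of equal length 2 regions were in S2-AbdA alone.

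M1BP showed no region in S2-AbdA alone (7.44% over the arms) and 5 of 14 in S2 alone (18.4%), 3 at Eip74EF and 2 at Eip75B. With M1BP lists of equal length 3 were in S2 alone, and 1 with the higher-scoring 50% of the S2 list. The strongest, 3L:17522493-17524090 (score 158), lay before Eip74EF and off AbdA, where Ser2P, GAF and dRing were called in S2-AbdA alone. The other 4 lay on AbdA peaks. They include 3L:17596860-17597415, under the strongest AbdA peak of the window, and 3L:17994578-17995098 at Eip75B (score 22.1), within the widest. At the AbdA peak 3L:17590071-17590480, M1BP, dRing and E(z) were all called in S2 alone and no factor was called in S2-AbdA. All 9 M1BP regions of both lines lay on AbdA (62.2% over the arms), and 5 of the 9 were on recurrent sites.

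dRing differed between the lines at most of its regions, as it did over the arms, where 33.9% were in both lines. At Eip74EF 10 of 17 regions were in S2-AbdA alone (42.6% over the arms), 3 in both lines and 4 in S2 alone (23.5% over the arms). At Eip75B 6 of 25 were in S2-AbdA alone, 10 in both and 9 in S2 alone. Of the 13 regions in S2 alone, 12 lay on AbdA peaks, against 71.5% over the arms. Of the 16 in S2-AbdA alone 10 did (55% over the arms), and of the 13 in both lines 11 did (46.3%). With lists of equal length the 16 came to 9. The strongest in S2-AbdA alone was 3L:17570632-17570937 at Eip74EF (score 20.7), and at Eip75B 3L:17965483-17965747 (score 14.6), both off AbdA. The strongest in S2 alone was 3L:17637931-17638287 at Eip74EF (score 38, on a recurrent site) and 3L:18012789-18013062 at Eip75B (score 42.6), where E(z) and M1BP were called in each line. The strongest dRing peaks of S2-AbdA, at 3L:17526487-17526796 (score 24.6) at Eip74EF and 3L:18019038-18019351 (score 26.6) at Eip75B, were on recurrent sites, as was that of S2 at Eip75B, 3L:17981272-17981569 (score 68.7).

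E(z) was mostly kept at Eip75B, where 19 of 27 regions were in both lines, 4 in S2-AbdA alone (12.6% over the arms) and 4 in S2 alone (20.7% over the arms). At Eip74EF 7 of 15 were in both, 2 in S2-AbdA alone and 6 in S2 alone. All 6 regions in S2-AbdA alone lay on AbdA peaks (66.5% over the arms), as did 8 of the 10 in S2 alone (74.1%). The strongest in S2-AbdA alone was 3L:17609763-17610552 at Eip74EF (score 10.1) and 3L:17994568-17995167 at Eip75B (score 10.6). The strongest in S2 alone, both scoring 15.8 at Eip74EF, were 3L:17590175-17590371, on AbdA, and 3L:17612379-17612725, on the strongest Rpb3 site of S2. At Eip75B it was 3L:17996289-17996580 (score 12.1), on the widest AbdA peak. The strongest E(z) peak of S2 at Eip74EF, 3L:17556458-17557242 (score 63.3), was kept in S2-AbdA and lay on AbdA with GAF and dRing of both lines. That of S2-AbdA at Eip74EF was 3L:17563084-17563729 (score 26.4), and that of S2 at Eip75B 3L:18012764-18013060 (score 43.5).

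The Polycomb proteins did not always move together. Of the 13 dRing regions in S2 alone, 8 had E(z) in both lines, 2 had it in S2 alone and 3 had it in S2-AbdA alone (5.61% over the arms). Those 3, all at Eip75B and all on AbdA, were 3L:17994580-17994975, 3L:18014053-18014384 and 3L:18039724-18040582. Their calls were weak. dRing scored 10.8, 16 and 9.42 in S2, under its list median of 28.3. E(z) scored 10.6, 10.2 and 10.3 in S2-AbdA, under its list median of 17.2. None of the 13 lacked E(z) in both lines (34.1% over the arms). Of the 16 dRing regions in S2-AbdA alone, 7 lacked E(z) in both lines (62.9% over the arms), 5 had it in both, and 2 each had it in S2-AbdA alone and in S2 alone. The 2 shared gains, 3L:17566955-17567447 and 3L:17609920-17610216, lay on AbdA peaks in the Eip74EF span.

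**Figure D5:**
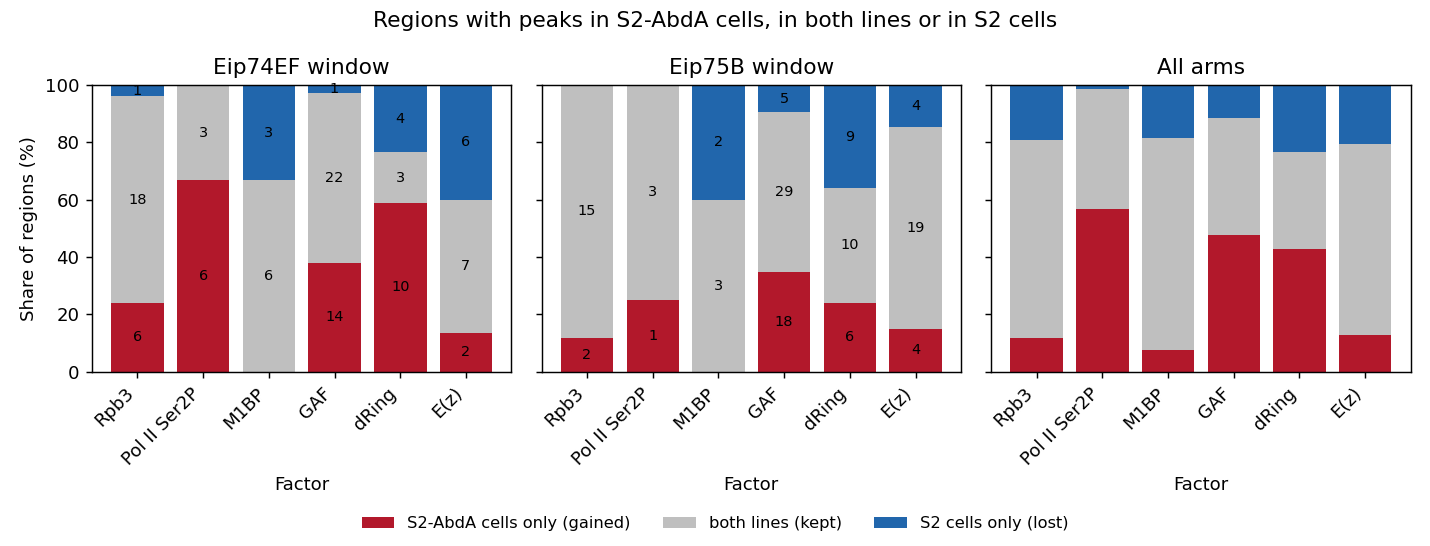
Share of merged regions of each factor, in percent, that were called in S2-AbdA alone, in both lines or in S2 alone, at Eip74EF, at Eip75B and over the arms. Numbers in the bars are regions. Rpb3 is largely shared at both loci, dRing has 10 regions in S2-AbdA alone at Eip74EF and 9 in S2 alone at Eip75B, and M1BP has none in S2-AbdA alone at either locus.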

How the data were processed

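Peak lists of 13 antibody and line pairs were used as the authors deposited them, each line giving a chromosome, a start, an end and a score. Per the submitters' processing notes, reads were aligned with BWA 0.7.12 to dm3 and peaks were called with MACS2. The unit of the deposited score is not stated in the files or labels, so scores only rank or filter peaks within a list, and no source used here says how the 2 samples behind a list were combined. Starts were changed to 1-based. A peak belonged to a window if it overlapped it, a shared region or overlap needed 1 bp, and coverage counted each base once. Python 3.11.15, numpy 2.4.6 and scipy 1.17.1 were used, and overlap counts were checked against bedtools and tested on simulated data. No test across features was run.

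Named peaks follow a rule: at each locus the 5 HA-AbdA peaks of highest score and the widest, the highest-scoring peak of each factor list, and the highest-scoring region of each factor in either line alone. Peaks described as strong Rpb3 sites, as lying in stretches without AbdA, as lacking every factor or as sites where several factors differed were picked after their values were seen. The loci and lists were chosen with earlier results of these data known. No dm3 genome or annotation was used here, so no sequence is given. The HA samples of S2 cells and the inputs were not analysed here.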

Additional observations from a re-analysis of the deposited data

How the results depend on the processing

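Of 122 recomputed values of the main counts and shares, 87 stayed within 1.5 times the reported value, for a count or a coverage, or within its exact 95% interval, for a share of AbdA peaks, and 35 did not. Of 336 values for single lists or loci 220 stayed within and 116 did not. The intervals of small shares are wide, so a share can stay within and still move by over 1.5 times. Requiring an overlap of 50% of the shorter peak left all 72 of its values within these limits. With the higher-scoring 50% of each list HA-AbdA had 19 peaks at Eip74EF, over 14.2%, and 17 at Eip75B, which follows from halving the list. Under the same setting AbdA peaks on Ser2P came to 5.56% in S2-AbdA and 0% in S2, on dRing to 11.1% in both lines, and on E(z) to 13.9% in S2-AbdA and 11.1% in S2. With only the higher-scoring 50% of one line's list set against the whole other list, regions in S2-AbdA alone at both loci fell to 0 for Rpb3, 0 for Ser2P, 11 for GAF, 4 for dRing and 0 for E(z), and those in S2 alone to 0 for Rpb3, 1 for M1BP, 3 for GAF, 2 for dRing and 0 for E(z). With lists of equal length, regions in S2-AbdA alone numbered 2 for Ser2P, 20 for GAF and 9 for dRing, and those in S2 alone 1 for Ser2P and 3 for M1BP. With peaks matched by centres within 250 bp, regions in S2 alone numbered 2 for Rpb3, 2 for Ser2P and 13 for GAF, and AbdA peaks on Ser2P came to 2.86% in S2-AbdA and 0% in S2, on GAF to 40% in S2-AbdA and 34.3% in S2. The approximate Eip74EF span, chosen after seeing the data, held 16 AbdA peaks. Joining AbdA peaks over 5 kb gave runs of at most 10 at Eip74EF and 15 at Eip75B, and over 20 kb a run of 61 at Eip75B. Leaving out recurrent sites, also chosen after seeing the data, put 3 of 72 values outside these limits, but lowered the share of AbdA peaks on M1BP to 6.25% in S2-AbdA and 10.9% in S2, and on Ser2P to 7.81% in S2-AbdA and 1.56% in S2. Both factors help to define these sites, so the lower shares follow in part from the definition. Apart from list length, halving and the definition of recurrent sites, the cause was not tested.

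No paired analysis was possible because each antibody and line with a list has 1 list for both samples. Leaving out a replicate was likewise not possible. Differences between the lines therefore have no replicate check.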
